A study of Mus musculus with 4 samples.

Results

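Expression of 10 immediate-early genes that cAMP and its transcription factor CREB can switch on was examined in tumor-associated macrophages (TAMs) from propranolol treated and control mice. The genes were Nr4a1, Nr4a2, Nr4a3, Crem, Fos, Fosb, Junb, Egr1, Dusp1 and Per1. They were chosen by name and found by Ensembl identifier among the 54146 genes of the count table. All 10 had enough counts to be tested, as had 14688 genes in all.

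Cells of MCA205 tumors, a transplanted mouse fibrosarcoma, were enriched on CD45 beads, and live cells positive for CD11b and F4/80 were sorted as TAMs. The hosts were female C57BL/6 mice aged 8 to 16 weeks. Control mice received vehicle, and treated mice received propranolol, which blocks beta-adrenergic receptors, at 0.5 g/L in the drinking water from the day of tumor inoculation. Poly-adenylated RNA of 2 libraries per group was sequenced, with 13798249 and 23018142 counted fragments in control libraries 1 and 2 and 39818103 and 16424081 in propranolol libraries 1 and 2. Whether a library came from 1 tumor or a pool is not given in the sources used here, so the p-values measure the spread between these libraries. The RNA is that of the whole sorted gate, in which fewer cells of a type and less RNA per cell cannot be told apart.

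Beta-adrenergic receptors couple to Gs, which raises cAMP and activates protein kinase A. The kinase phosphorylates CREB bound at cAMP response elements, and genes that carry such elements are transcribed within minutes, without new protein synthesis. Many of the same genes also answer to MAP kinases, to serum response factor and to stress. In macrophages, the NR4A nuclear receptors and the phosphatase encoded by Dusp1 are known as brakes on inflammatory gene expression, while FOS and JUNB proteins are subunits of the AP-1 transcription factor. Tissue digestion and sorting are also known to switch on immediate-early genes.

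The start site windows of 8 of these genes carry cAMP response element cores. RefSeq start site windows of 300 bases (250 before and 50 after the start, GRCm38.p6) were at hand for 8 of the 10 genes. Crem and Egr1 had none at hand. In all, 9 such windows were searched on both strands. The core, TGACG or its reverse complement CGTCA, occurred in 9 of 9 windows, against 20.8% of the windows of all genes. The genes were chosen as targets of cAMP and CREB, so this share is not an independent result. The full palindrome TGACGTCA, which contains both forms of the core, occurred in the Dusp1 window alone among the 9, against 1.79% of all. The CArG box of serum response factor and the AP-1 motif TGANTCA, with N any base, occurred in 0 of 9 windows, against 1.63% and 7.81% of all. Sites outside the windows were not searched. These windows were rich in G and C, with 72.3% GC in that of Nr4a1, 81.7% in that of Nr4a2 and 67.0% in that of Dusp1, and a match is a description of letters, not of binding. The bases before the annotated start are printed for Nr4a1 and Nr4a2, 2 receptors of the same family whose values lay on opposite sides of control, and for Dusp1 because of its palindrome. For Dusp1 the 47 bases next to the start are annotated as exon and are left out. Each runs 5′ to 3′ on the gene's strand, with capitals marking the cores and the palindrome.
Nr4a1, chr15:101266596-101266845, + strand: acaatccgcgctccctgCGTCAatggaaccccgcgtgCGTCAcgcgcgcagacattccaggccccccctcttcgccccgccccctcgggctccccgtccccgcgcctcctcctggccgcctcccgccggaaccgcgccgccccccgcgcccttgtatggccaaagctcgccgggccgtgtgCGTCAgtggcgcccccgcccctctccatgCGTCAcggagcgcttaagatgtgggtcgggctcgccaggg
Nr4a2, chr2:57124004-57124253, - strand: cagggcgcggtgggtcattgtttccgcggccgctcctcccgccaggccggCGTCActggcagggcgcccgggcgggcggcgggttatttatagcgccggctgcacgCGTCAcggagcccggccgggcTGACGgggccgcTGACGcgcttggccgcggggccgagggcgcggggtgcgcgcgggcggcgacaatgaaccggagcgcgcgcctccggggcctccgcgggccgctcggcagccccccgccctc
Dusp1, chr17:26508520-26508722, - strand: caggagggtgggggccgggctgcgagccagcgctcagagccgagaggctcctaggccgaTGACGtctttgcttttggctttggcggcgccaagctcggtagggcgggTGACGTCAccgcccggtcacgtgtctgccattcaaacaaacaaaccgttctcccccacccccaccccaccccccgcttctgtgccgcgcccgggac
Nr4a1 and Nr4a2 each held 4 cores in their windows, and the same count was found in the Nr4a3 window. The cores of Nr4a1 began 233, 213, 69 and 40 bases before the start, those of Nr4a2 200, 144, 123 and 111 bases before it. In Dusp1 the palindrome began 143 bases before the start. The number of cores in the window was thus the same for Nr4a1 and Nr4a2, and its part in their fold changes was not tested.

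The first question was whether these genes differed after propranolol. Nr4a1, Dusp1 and Egr1 rose, at log2 fold changes of 0.90, 0.73 and 0.68, or 1.86-fold for Nr4a1. A gene was called changed at a Benjamini-Hochberg adjusted p under 0.05 in the edgeR quasi-likelihood test and a difference of more than 1.5-fold. By this rule 3 of the 10 genes rose, where 12.2% of all tested genes rose, and 0 of the 10 fell, where 15.6% of all fell. At an unadjusted p under 0.05, 6 of the 10 were higher and 1 was lower (Nr4a2), against 25.5% and 25.0% of all tested genes, and the limma-voom test called Nr4a2 lower while DESeq2 called 0 lower. Changes in either direction were made by 27.8% of all tested genes, so 3 of 10 is near the background for change as such. The median log2 fold change was 0.38 over the 10 genes and -0.02 over all tested genes. Without the fold threshold 6 of the 10 were higher and 1 was lower, against 21.8% and 20.4% of all tested genes. Both propranolol libraries lay above both control libraries in 7 of the 10 genes, against 35.8% of all tested genes, and below them in 1 (Nr4a2), against 36.9%. These counts are on CPM. On TPM (counts per exon length, scaled to the same sum in every library) they lay above in 3 (Nr4a1, Dusp1 and Egr1) and below in 2 (Nr4a2 and Crem), where 23.0% of all tested genes lay above, 7345 of 14688 lay below and 73.0% did either. On CPM corrected for GC content, as described further on, they lay above in 6, which lack Junb and Per1 and add Crem, and below in Nr4a2, against 39.6% and 24.4%.

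**Figure D1:**
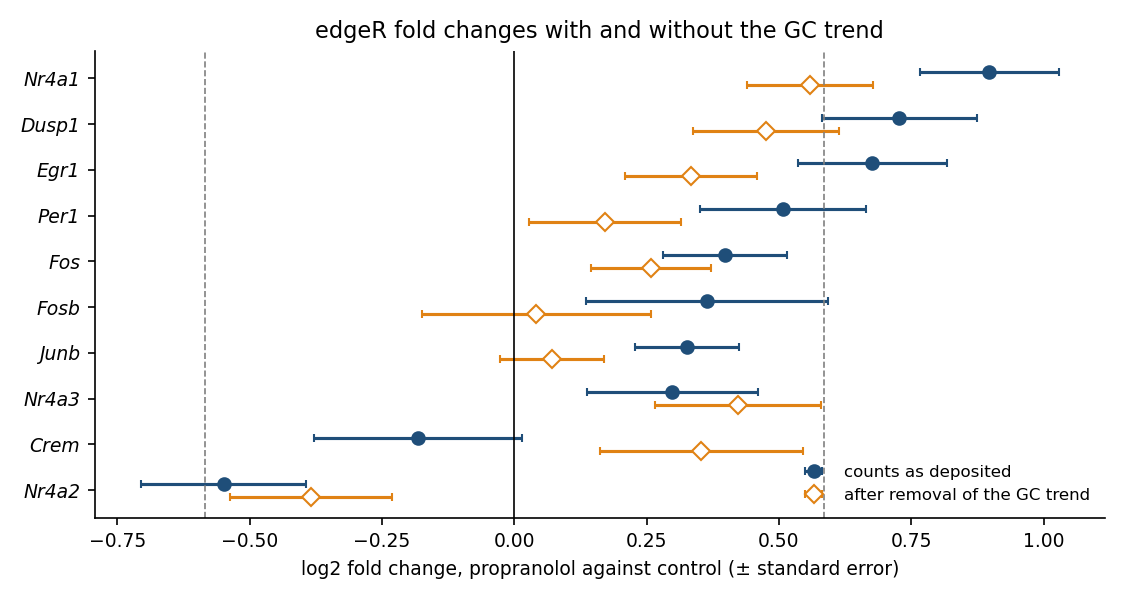
Log2 fold change of each gene, propranolol against control, with its standard error, from the edgeR test as used here and after a correction for GC content. Dashed lines mark a 1.5-fold change. Nr4a1, Dusp1 and Egr1 passed the threshold without the correction, and none of the 10 passed it with the correction.

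Nr4a1 encodes NUR77, an orphan nuclear receptor that is induced within minutes of many stimuli. Nr4a1 (ENSMUSG00000023034.7, chr15:101254269-101274795, + strand, GRCm38) was measured at 134 and 124 CPM in control libraries 1 and 2 and at 208 and 272 CPM in propranolol libraries 1 and 2, where CPM are counts scaled to the TMM-normalized library size. Both propranolol libraries lay well above the control pair, which differed little from each other. The mean was 129 ± 7.08 CPM in control (SD, n = 2) and 240 ± 45.5 CPM after propranolol (SD, n = 2), and the log2 fold change was 0.90 with an SE of 0.13 and an edgeR adjusted p of 0.000619. Among the 10 genes this was the highest fold change, and the call held with each of the 4 libraries left out in turn, at log2 fold changes from 0.72 to 1.08.

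Nr4a2 encodes NURR1, a close relative of NUR77. Nr4a2 (ENSMUSG00000026826.13, chr2:57106830-57124003, - strand) stood at 25.2 and 29.5 CPM in the control libraries and at 17.0 and 20.7 CPM in the propranolol libraries. The order was thus the opposite of that of Nr4a1, with both propranolol values below both control values. The log2 fold change was -0.55 (SE 0.16), with an edgeR adjusted p of 0.0179, and at 1.46-fold it did not reach the fold threshold.

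Nr4a3, the third receptor of the family (NOR1, chr4:48045153-48086447, + strand), gave 16.0 and 18.2 CPM in control and 19.2 and 23.2 CPM after propranolol. Its groups did not overlap, but the distance between them was near the spread within the propranolol pair. The log2 fold change was 0.30 (SE 0.16), with an edgeR adjusted p of 0.163. The fold changes of the 3 receptors thus differed in sign, and all 3 have cores of the cAMP response element in their start site windows.

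The family was also compared within each library, since a ratio of TPM needs no scaling between libraries. Nr4a1 stood at 6.14 and 4.85 times the TPM of Nr4a2 in the control libraries and at 14.1 and 15.2 times in the propranolol libraries. The mean ratio was 5.50 ± 0.913 in control and 14.7 ± 0.744 after propranolol (SD, n = 2 each). For Nr4a3 to Nr4a2 the ratio was 0.431 and 0.419 in control and 0.768 and 0.760 after propranolol. On TPM, its SD relative to the mean was the smallest of the 7 ratios computed, in each group. Nr4a1 to Nr4a3 stood at 14.3 and 11.6 in control and at a mean of 19.2 ± 1.13 after propranolol (SD, n = 2). An exact two-sided permutation test of 2 libraries against 2 cannot give a p below 0.333, which each of these 3 ratios gave. After the correction for GC content described below, with values per kb of exon, the ratio of Nr4a1 to Nr4a2 was 7.38 and 5.71 in control and 12.3 and 12.4 after propranolol. Nr4a3 to Nr4a2 then stood at 0.438 and 0.425 against 0.758 and 0.747, and the ratio of Nr4a1 to Nr4a3 overlapped between the groups. Of the 3 ratios within the family, those to Nr4a2 thus remained apart between the groups under both scales.

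**Figure D2:**
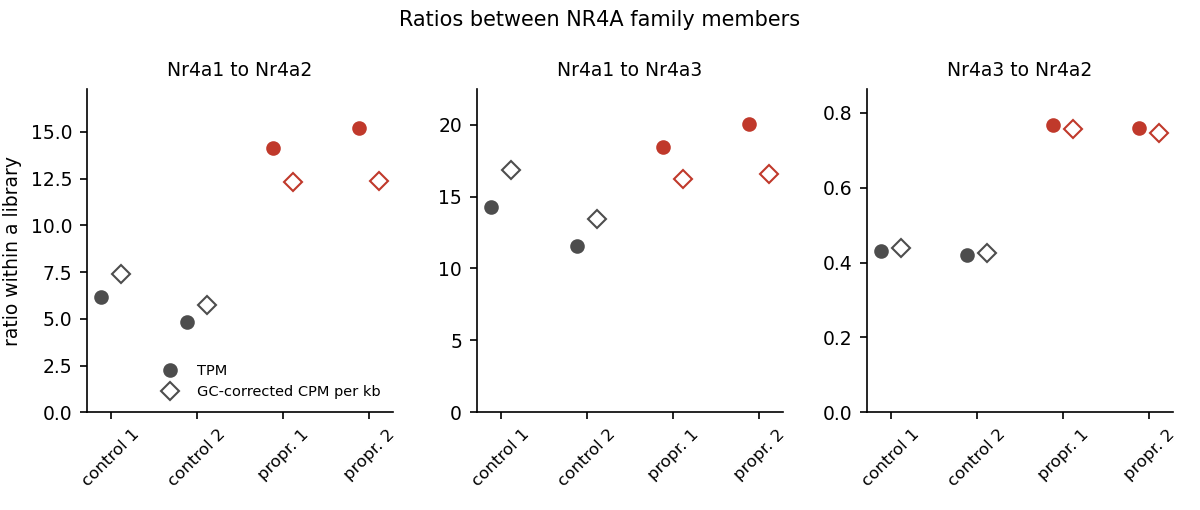
Ratios between NR4A genes within each library (vertical axes from 0, without unit), from TPM and from GC-corrected CPM per kb of exon. Both ratios to Nr4a2 were higher in the 2 propranolol libraries on both scales, while Nr4a1 to Nr4a3 overlapped between groups after the correction.

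Fos, Fosb and Junb encode subunits of AP-1, which binds DNA as a pair of subunits. Fos (chr12:85473890-85477273, + strand) was measured at 576 and 677 CPM in control and at 750 and 900 CPM after propranolol. Both treated libraries were higher, by a log2 fold change of 0.40 (SE 0.12, edgeR adjusted p 0.0205), short of 1.5-fold. Junb (chr8:84974484-84978718, - strand) gave 694 and 785 CPM in control and 888 and 967 CPM after propranolol, with a log2 fold change of 0.33 (SE 0.10, edgeR adjusted p 0.0232). Junb shares 7.52% of its exon bases with Prdx2 on the opposite strand, and since the stated counting options hold no strand option, reads of that stretch cannot be told apart. Fosb (chr7:19302696-19310051, - strand) stood at 111 and 166 CPM in control and at 135 and 224 CPM after propranolol. Its groups overlapped, and its edgeR adjusted p was 0.227 at a log2 fold change of 0.36 (SE 0.23). After the GC correction described further on, the log2 fold change was 0.26 for Fos, 0.07 for Junb and 0.04 for Fosb. Fos stood at 0.812 and 0.843 times the TPM of Junb in control and at 0.827 and 0.911 times after propranolol, which overlap. On the GC-corrected scale per kb of exon the ratio was 0.796 and 0.795 in control and 0.833 and 0.978 after propranolol, which do not overlap (exact permutation p 0.333, the smallest possible).

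Egr1 encodes a zinc finger transcription factor that acts early after growth factor and stress signals. Egr1 (ENSMUSG00000038418.7, chr18:34859823-34864984, + strand) was measured at 80.9 and 86.1 CPM in control and at 113 and 154 CPM after propranolol. The control pair was tight, and propranolol library 2 stood highest. The log2 fold change was 0.68 (SE 0.14, edgeR adjusted p 0.00380). Without propranolol library 2 it was 0.47, and the gene no longer passed the fold threshold.

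Dusp1 encodes a nuclear phosphatase that switches off p38 and JNK and is also a target of glucocorticoids. Dusp1 (ENSMUSG00000024190.6, chr17:26505590-26562128, - strand) gave 325 and 394 CPM in control and 506 and 687 CPM after propranolol. All treated values exceeded all control values, with means of 360 ± 49.0 and 596 ± 128 CPM (SD, n = 2 each). The log2 fold change was 0.73 (SE 0.15, edgeR adjusted p 0.00324). As for Egr1, the call was lost without propranolol library 2, at a log2 fold change of 0.52, and with library totals in place of TMM factors, at 0.50 for Dusp1 and 0.44 for Egr1.

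Per1, a repressor in the circadian clock that cAMP and glucocorticoids also induce, stood at 57.5 and 77.6 CPM in control and at 85.7 and 107 CPM after propranolol (chr11:69095217-69109960, + strand). Its groups did not overlap, and its log2 fold change was 0.51 (SE 0.16, edgeR adjusted p 0.0252), short of 1.5-fold. After the GC correction it was 0.17 (edgeR adjusted p 0.429). Crem, whose short ICER product represses cAMP-responsive genes, was measured at 21.8 and 14.7 CPM in control and at 15.8 and 16.2 CPM after propranolol (chr18:3266048-3337748, - strand). Control library 1 alone was high, the groups overlapped, and the log2 fold change of -0.18 (SE 0.20, edgeR adjusted p 0.486) turned to 0.17 when that library was left out. The counts are per gene, so ICER was not separated from the full-length forms. Crem shares 8.01% of its exon bases with Gm6225 on the opposite strand.

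By level per length the 10 genes spanned 2 orders of magnitude. In control, Junb was highest at 1068 ± 115 TPM and was followed by Fos at 885 ± 119, Dusp1 at 361 ± 56.5 and Nr4a1 at 122 ± 4.22 TPM (SD, n = 2 each). Fosb at 74.0 ± 22.2 and Egr1 at 61.8 ± 3.99 TPM overlapped, Per1 came next at 39.9 ± 9.20 TPM, then Nr4a2 at 22.4 ± 2.95, and Crem at 10.2 ± 2.61 and Nr4a3 at 9.49 ± 1.07 TPM overlapped. After propranolol the order was the same except that Egr1 stood above Fosb and Nr4a3 above Crem. Junb at 1136 ± 100 and Fos at 990 ± 155 TPM then overlapped, as did Egr1 at 84.3 ± 20.4 and Fosb at 81.4 ± 30.7 TPM. Fos and Junb together made up 73.7% and 73.5% of the summed TPM of the 10 genes in control and 71.3% and 67.5% after propranolol. The 10 genes took 0.219% and 0.259% of all counts in control and 0.250% and 0.313% after propranolol, a share that overlapped between the groups. Their summed CPM, scaled with TMM factors, was 2041 and 2372 in control and 2738 and 3372 after propranolol, which did not overlap.

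Most of the 10 genes also differed in the same direction between libraries of the same group, a pattern that was not tested. Propranolol library 2 exceeded library 1 in 10 of 10 genes, by a median of 0.31 on the log2 scale, while 6619 of all 14688 tested genes lay above with a median of -0.03. Control library 2 exceeded library 1 in 8 of 10, all but Nr4a1 and Crem, by a median of 0.21, while 7280 of all 14688 lay above with a median of -0.0025. Averaged over the 10 genes, the log2 difference from the control mean was -0.08 and 0.08 in the control libraries, 0.18 in propranolol library 1 and 0.51 in propranolol library 2. The distance between the treated libraries was therefore larger than that between propranolol library 1 and control library 2. Without propranolol library 2, 1 gene rose (Nr4a1) and 1 fell (Nr4a2), against 11.3% and 11.0% of all genes tested. Without propranolol library 1, 5 rose (Nr4a1, Dusp1, Egr1, Fosb and Per1), and 0 fell, against 12.1% and 15.0%, and the same 5 rose and 0 fell without control library 2, against 14.2% and 14.9%. In each of these edgeR fits 1 of the 10 was lower at an unadjusted p under 0.05, Nr4a2 without propranolol library 1 and Crem without control library 2. Without control library 1, 3 rose and Nr4a2 fell at a log2 fold change of -0.60, against 12.4% and 10.4%.

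**Figure D3:**
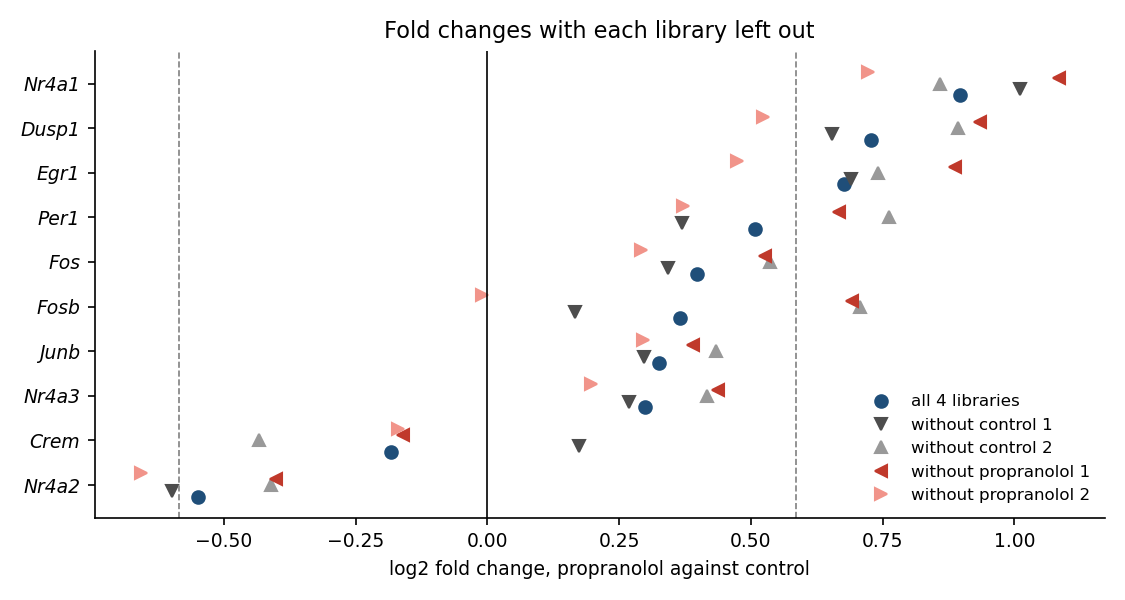
Log2 fold change of each of the 10 genes with all 4 libraries and with each library left out in turn. Symbol shape and colour mark the library left out, not the call, and dashed lines mark a 1.5-fold change. Nr4a1 was called throughout, whereas Dusp1 and Egr1 lost the call without propranolol library 2 and Fosb came close to 0 there.

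GC content moved with the fold changes of all genes. Tested genes were split into 10 groups of near-equal size by rising GC content. In group 1, 60.3% fell and 0.204% rose, at a median log2 fold change of -0.94. In groups 9 and 10, 30.3% and 32.8% rose, at medians of 0.47 and 0.46. The 10 immediate-early genes had a median GC content of 55.0%, against 49.6% for all tested genes. Nr4a1, at 57.0% GC, and Egr1, at 57.3%, belonged to group 9, and Dusp1, at 54.0%, to group 8, in which 21.5% rose. Junb and Per1 belonged to group 10 and Crem, at 43.2% GC, to group 2, where the median log2 fold change was -0.59. In group 2, 0.954% rose and 36.1% fell, and in group 5, which held Nr4a2 and Nr4a3, 5.72% rose and 7.90% fell.

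A correction removed a smooth function of GC content from each library. It left 0 of the 10 genes changed in the edgeR test, against 12.6% of all tested genes (7.64% higher and 4.99% lower), and no other tool was run with it. At an unadjusted p under 0.05 there were 6 of the 10, 5 higher and 1 lower, against 25.1% and 12.1% of all tested genes. Nr4a1 then had a log2 fold change of 0.56 (edgeR adjusted p 0.00972) and Dusp1 one of 0.48 (edgeR adjusted p 0.0341), both short of 1.5-fold. Egr1 was at 0.33, with an edgeR adjusted p of 0.0816. Fos was at 0.26, Per1 at 0.17, Junb at 0.07 and Fosb at 0.04, with edgeR adjusted p from 0.128 (Fos) to 0.913 (Fosb). Nr4a2, at 47.9% GC, was at -0.38, with an edgeR adjusted p of 0.0991, and Nr4a3, at 48.4% GC, was at 0.42, with an edgeR adjusted p of 0.0780. Crem took the opposite sign, at 0.35, with an edgeR adjusted p of 0.213. The median over the 10 genes was 0.30, against 0.09 over all tested genes. The part that GC content plays in these differences was not tested beyond this correction.

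**Figure D4:**
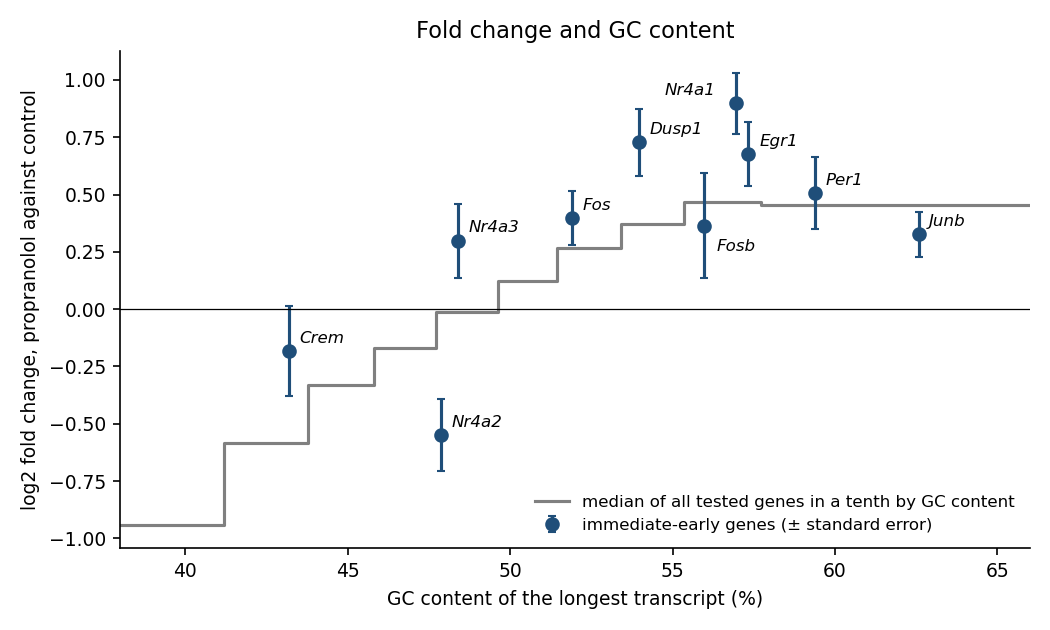
Log2 fold change against GC content of the longest transcript, in percent. The grey stepped line is the median of all tested genes in each of 10 GC groups. Labelled points are the 10 immediate-early genes with their standard errors, and other genes are not drawn singly. Of the 10, 7 lie at the GC-rich side, where the median of all genes is above 0, and Nr4a1 lies above and Nr4a2 below the median of its GC group.

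Genes related by function were counted from lists written by hand, beside the 12.2% of all tested genes that rose and the 15.6% that fell. The most abundant gene of a list is that with the highest mean TPM over the 4 libraries. Of 24 tested genes among the other immediate-early factors, 4 rose and 2 fell. Csrnp1, a nuclear factor, rose at a log2 fold change of 0.92, Ier2, an early response gene, at 0.87, Egr2, a paralog of Egr1, at 0.61 and Jun, an AP-1 subunit and the most abundant of the list, at 0.61. Jund, the AP-1 subunit that is present without stimulation, fell at -0.90 and Klf6, a zinc finger factor, at -0.64. After the GC correction Csrnp1 and Jund alone of this list were still called. Jun lost the call without control library 1 (0.47) or propranolol library 2 (0.52), and Egr2 without control library 1 (0.56) or propranolol library 1 (0.55). Of the 10 MAP kinase phosphatases other than Dusp1, 3 rose, namely Dusp7 at 0.82, Dusp5 at 0.77 and Dusp6 at 0.69, all of which act on ERK, and Dusp6 alone was still called after the correction, at 0.77. Of 13 tested clock genes other than Per1, 2 fell, the nuclear receptors Rora at -1.32 and Nr1d2 at -0.82, and 0 rose in the edgeR and DESeq2 tests, with 1 higher at an unadjusted p under 0.05 in the edgeR test. The limma-voom test called 4 lower, with Dbp at -0.80 and Hlf at -2.31 added. After the GC correction neither Rora (-0.55) nor Nr1d2 (-0.15) was called, and Dbp was called lower at -0.96. Without control library 2, however, 5 clock genes rose, against 14.2% of all genes in that fit, namely Per2 at 0.98, Ciart at 0.92, Nr1d1 at 0.87, Cry2 at 0.86 and Per3 at 0.76.

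Of 19 tested genes among the other cAMP-responsive genes, 3 rose and 4 fell, at a median log2 fold change of 0.16. Thbs1, encoding thrombospondin-1, rose at 1.67 and was the most abundant, and Hdc, the enzyme that makes histamine, rose at 2.14. Areg, the EGF receptor ligand amphiregulin, had 5 and 0 counts in control and 49 and 24 after propranolol and was called at a log2 fold change of 3.36. Without control library 2 the call was lost, at 2.10 with an edgeR adjusted p of 0.0735, and without control library 1 the remaining control count was 0. Rgs1 at -1.01 and Rgs2 at -0.66, which limit G protein signals, fell, as did the GTPase gene Gem at -0.79 and the phosphodiesterase gene Pde3b at -0.73. Gem (-0.61) and Pde3b (-0.56) lost the call without control library 1. After the GC correction 5 genes of the list were higher and none of these 4 was called lower in the edgeR test, with Rgs1 at 0.39. The 5 were Areg, Hdc and Thbs1 as before, the cytokine gene Il10 at 1.13 and the prostaglandin synthase gene Ptgs2 at 1.36. Sik1, a kinase gene often used as a CREB target, was at 0.36 with an edgeR adjusted p of 0.112 and rose at 0.61 without propranolol library 1, a fit in which 5 genes of the list rose, and Pde4b, a cAMP phosphodiesterase, was at 0.00.

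The machinery upstream was counted likewise. Of 14 genes of the CREB machinery, 2 fell, Crebrf at -1.67 and Creb1 at -0.65. After the GC correction Creb1 stood at 0.27, and Crebrf was still called, at -0.69. Without propranolol library 1, however, 3 genes of this list rose, against 12.1% of all genes in that fit, Sik3 at 0.67, Crtc1 at 0.63 and Crtc2 at 0.59. Sik3 also rose without control library 2 (0.63) and Creb3 without propranolol library 2 (0.64). Of 12 genes of the serum response, 3 rose, namely Srf at 0.69, the ERK1 gene Mapk3 at 0.63 and its kinase Map2k2 at 0.62, and 2 fell, Rps6ka3 at -0.80 and Elk4 at -0.78. After the GC correction Elk4 alone of these 5 was still called, and Rps6ka3 stood at 0.0045. Without propranolol library 1, Mrtfa of this list stood at 0.64 and Rps6ka1 at 0.60, where all 4 libraries gave 0.49 and 0.53. Of 10 tested genes of Gs and its receptors, 5 rose and 1 fell, while DESeq2 called 3 higher, as did the edgeR test without control library 1 or without propranolol library 1. Ptger2, a prostaglandin receptor at 0.64, lost the call in DESeq2 and with each of the 4 libraries left out in turn. Adora2b, an adenosine receptor, rose at 1.66, as did the receptor genes Vipr1 at 0.80 and Ptgir at 0.72, the latter without a call when control library 1 or propranolol library 1 was left out. With the GC correction 4 genes of the list were higher and 2 were lower, with Vipr1 and Ptgir no longer called and the prostaglandin receptor gene Ptger4 called at 0.62. Gnas, encoding the Gs alpha subunit, fell at -0.72, a call that was lost without control library 1 (-0.43) or propranolol library 1 (-0.57). Of 12 heat shock genes, which respond to stress during tissue handling as well as in the tumor, 4 rose and 2 fell. Hspa1b at 1.19 and Hspa1a at 1.03 rose, but they are near-identical copies between which reads may be split. Hspb1 rose at 0.97 and Hspa8 at 0.68, Dnaja1 fell at -0.73 and Hsp90aa1 at -0.60, and Hsp90ab1 was the most abundant. After the GC correction the 4 that rose were still called, and Dnaja1 stood at 0.014. Hsp90aa1 lost the call in DESeq2 (-0.57) and without control library 1 (-0.50) or propranolol library 1 (-0.57). The summed CPM of the 12 was 4343 and 4533 in control and 5915 and 6432 after propranolol, so it was higher in both treated libraries, as 7 of the 10 immediate-early genes were in CPM. Its part in their values was not tested. With library totals in place of TMM factors 609 of all tested genes rose and 3497 fell, where TMM gave 1798 and 2286. The counts of most of these lists moved as well, but not that of the other cAMP-responsive genes. By these totals 3 serum response genes fell and Srf, Mapk3 and Map2k2 lost the call, 2 genes of Gs and its receptors rose and 2 fell, 6 clock genes fell, and 1 MAP kinase phosphatase gene rose.

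Markers of the sorted population and of other cells were measured beside these genes. The sort markers Adgre1 (F4/80), at 975 and 1008 CPM in control and 1151 and 1100 after propranolol, and Itgam (CD11b), at 359 and 352 against 369 and 313 CPM, were present in every library. The 13 macrophage markers, of which Lyz2 was the most abundant, summed to 23325 and 22635 CPM in control and 28923 and 26315 CPM after propranolol. Of these 13, Csf1r rose at a log2 fold change of 0.59 and Ptprc fell at -0.74, but after the GC correction neither was called and Ptprc took the opposite sign, at 0.20. The count of markers called higher was 1 here, 3 in DESeq2, 3 without control library 1, 3 without control library 2 and 4 without propranolol library 2 (Cd68, Fcgr1, C1qb and Spi1), a fit in which Csf1r, at 0.55, was not called. With library totals none was called higher in the edgeR test, and Csf1r stood at 0.36. Of 12 T and NK cell markers 11 fell, and their sum was 308 and 344 CPM in control against 148 and 78.7 CPM after propranolol, with Trac the most abundant and none at 0. Of 8 tested neutrophil markers 5 rose, and the 12 listed summed to 182 and 199 CPM against 357 and 383 CPM, with S100a9 the most abundant. The defining neutrophil gene Ly6g had 0 and 2 counts in control and 17 and 8 after propranolol. Of 8 fibroblast and tumor cell markers 6 fell, with sums of 2775 and 1039 CPM in control and 620 and 677 CPM after propranolol and Col1a1 the most abundant, and control library 1 stood apart from the others. Without it 3 of the 8 fell. Of 7 dendritic cell markers 3 fell, with sums of 33.0 and 32.6 against 20.4 and 18.5 CPM and Ccr7 the most abundant. The 6 B cell markers summed to 159 and 183 against 184 and 196 CPM, nearly all of it Ighm, and the 7 endothelial markers to 50.9 and 48.4 against 64.2 and 64.2 CPM, with Pecam1 the most abundant. With the GC correction 10 T and NK cell, 5 fibroblast and tumor cell and 1 dendritic cell markers were called lower and 6 neutrophil markers higher. T cells and neutrophils also express immediate-early genes, and the part of other cells in the values of the 10 genes was not tested.

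The genes most like each of the 10 were sought as those with the smallest Euclidean distance between log2 CPM profiles, each centred on its mean over the 4 libraries. Closest to Nr4a1 were Syngr1 at 0.0412, Syt3 at 0.0547 and Zfp428 at 0.059. Closest to Dusp1 were Zfp341 at 0.0162 and Trrap at 0.0267, and closest to Egr1 was Coa6 at 0.0523. Golga1 was closest to Nr4a2, at 0.0316, and Dennd6b to Fos, at 0.0106. None of the 10 was among the 3 nearest genes of another of the 10, and with 4 libraries many genes share a profile.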

How the data were processed

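The authors aligned paired reads to mm10 with STAR 2.7.1a, filtered alignments on mapping quality with SAMtools 1.9 and assigned fragments to exons of GENCODE genes with featureCounts 1.6.4 (versions from the submitters' processing notes), and the deposited values are raw counts per gene. The counting options that the methods state hold no strand option, and the default of featureCounts ignores strand. The GENCODE release is not given in the sources used here. Identifiers were matched to GENCODE M21 (GRCm38) for symbols, positions, exon lengths and the GC content of the longest transcript, which 99.95% of tested genes had. Of 54146 genes, 25803 had no counts. With R 4.3.3 and edgeR 4.0.16, genes were filtered with filterByExpr (minimum count 10), libraries scaled with TMM factors (1.08 and 1.09 in control, 0.914 and 0.931 after propranolol), and the groups of 2 libraries compared with the quasi-likelihood test, without covariates, with Benjamini-Hochberg adjustment over the 14688 genes tested.

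Changed genes had an adjusted p under 0.05 and a difference over 1.5-fold. All 10 immediate-early genes are named, with the 3 nearest profiles of each searched for. From each related list, up to 5 changed genes by fold and the most abundant gene are named, the latter not for the clock and CREB lists, where the order depended on the group. A result that this rule would name is not reported here. Further changed genes, genes whose call depended on a setting, Il10, Ptgs2, Sik1, Pde4b, the sort markers and Ly6g were chosen after their values were seen. The genes and lists were chosen with earlier results of these data known. The GC correction removed a natural spline with 5 degrees of freedom through offsets. DESeq2 1.42.0, limma-voom (limma 3.58.1), glmTreat, other scalings, filters and thresholds, each library left out and a replicate block were alternatives. Counts of genes whose groups do not overlap were repeated on TPM and GC-corrected CPM, a choice made after seeing the data. Scripts were tested on simulated data. Libraries of a group differed by more than sampling noise (chi-square per degree of freedom 11.8 in control and 15.1 after propranolol), and no library was counted as a duplicate. Promoter windows came from RefSeq.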

Additional observations from a re-analysis of the deposited data

How the results depend on the processing

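Counts of changed genes refer first to all tested genes and then to the 10 immediate-early genes. With all libraries and TMM factors they were 4084 and 3. They were 1093 and 0 with the edgeR glmTreat test against 1.5-fold, 1855 and 0 with the GC correction, 2128 and 0 with the GC correction and the replicate block, 6204 and 7 without a fold threshold, and 728 and 0 at a log2 threshold of 1.5. Leaving out 1 library gave from 3615 to 4329 and from 2 to 5, with the lone library of a group assumed to vary like the other group. The unadjusted p was under 0.05 for 1 of the 10 with glmTreat. With library totals the calls over all genes were 609 higher and 3497 lower, where TMM gave 1798 and 2286, the median of all genes was -0.25, and 2 of the 10 were called, Nr4a1 higher at a log2 fold change of 0.67 and Nr4a2 lower at -0.78. DESeq2 (3722 and 3), limma-voom (3983 and 4), upper-quartile factors (3950 and 4), DESeq2 size factors (4075 and 3), no filter (4466 and 3) and a stricter filter (4001 and 3) stayed within 1.5 times.

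The replicate numbers are shared by the groups, but the labels do not say that a number marks a shared batch. Deviations from the group mean correlated at 0.169 between control library 1 and propranolol library 1, over 14688 genes. With 2 libraries per group, the other same-numbered pair gives the same value by construction. With the replicate block 4362 genes were called, and 3 of the 10.

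Crem reversed without control library 1 (0.17), with the GC correction (0.35) and with the correction and the block (0.36), and Fosb without propranolol library 2 (-0.010). With each library left out in turn, Crem ranged from -0.43 to 0.17 and Fosb from -0.010 to 0.71. Of 150 values of the 10 genes under alternatives, 124 kept direction and call, 9 gained the call and 13 lost it. Nr4a2, Nr4a3 and Crem had the fewest counts, 237 to 739 a library, and Fosb, with more counts, had the largest SE of the 10 (0.23).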
